A study of Mus musculus with 16 samples.

Results

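The glutathione and NRF2 antioxidant genes were examined in the tibialis anterior, the muscle that lifts the foot at the ankle and in mice consists largely of fast fibres, of mice given recombinant GDF15, of pair-fed mice and of vehicle-treated mice. The group holds 10 genes, Gclc, Gclm, Gss, Gsr, Gpx1, Gpx3, Gpx4, Ggct, Nqo1 and Hmox1, and all 10 have a row among the 14538 genes deposited. They were chosen by their symbols, with earlier results of these data known, so their shares beside those of all genes are a description. There were 5 vehicle-treated, 6 GDF15-treated and 5 pair-fed animals, all wild type on the C57BL/6 background by their labels (C57BL/6J males by the methods of the study), with 1 RNA-seq library per mouse. All 3 groups were kept at about 29 °C on a NASH diet, a diet that produces fatty liver disease with inflammation, from 8 weeks of age, and the age at sampling is not given by the labels. By the methods of the study, mice were caged singly once they were assigned to treatment groups, before treatment began. GDF15 was injected under the skin each morning. The labels list 0.3, 1 and 5 nmol/kg as doses of the protocol and do not say which of them these mice received. The pair-fed mice were limited to the food intake of the GDF15 group, so that GDF15 against pair-fed asks what differed at a like intake. Pair-fed against vehicle asks what went with pair-feeding as a whole, in which the amount of food and the timing of meals cannot be told apart.

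Glutathione is a small sulfur-containing peptide that serves cells as their main soluble antioxidant. The ligase formed by Gclc and Gclm makes its precursor, Gss completes it, glutathione peroxidases spend it to reduce peroxides, and Gsr returns the oxidized form to use. NRF2, encoded by Nfe2l2, is a transcription factor that Keap1 marks for degradation in unstressed cells, and when it is stabilized it binds antioxidant response elements near genes such as Gclc, Gclm, Gsr, Nqo1 and Hmox1. In muscle these systems meet the oxidants made during contraction and by mitochondria.

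All values below are normalized counts, obtained by transforming the deposited log2 values back, or log2 differences between group means of log2(normalized count + 1), which understate the change of low genes. A gene was said to pass the adjusted p when its Benjamini-Hochberg adjusted p from limma, over 11841 tested genes, was under 0.1, and to pass both thresholds when its log2 difference was also above 0.6 in size. All 10 genes reached the mean of 10 normalized counts needed for testing. The libraries held about 9482763 to 15030303 reads as judged from the values, with group medians of 13888125 for vehicle, 12131446 for GDF15 and 14261194 for pair-fed. All 8 markers of muscle fibres were abundant in every library, with sums of 1976240 to 2222180 normalized counts for vehicle, 1999970 to 2223670 for GDF15 and 2147240 to 2428900 for pair-fed. Of these 8, 2 passed the adjusted p as higher in pair-fed than in vehicle-treated mice (Actn3, 0.33, and Ckm, 0.15) and 1 as lower (Myh1, -0.68), where 3.2% and 3.17% of all tested genes did. Actn3 passed as lower with GDF15 than with pair-feeding (-0.27), where 1.24% of all tested genes did. These markers were named after their values were seen. All 5 Schwann cell markers were higher with GDF15 than with pair-feeding (median 0.33) and lower in pair-fed than in vehicle-treated mice (median -0.21), and 0 of 5 passed. The part of these markers in the results below was not tested. Whether less RNA of a gene came from fewer cells of a type or from less RNA per cell cannot be told apart in whole muscle.

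No member passed both thresholds in any comparison by limma, where 0.279% of all tested genes did so for GDF15 against pair-fed, 0.304% for GDF15 against vehicle and 0.819% for pair-fed against vehicle. These backgrounds are 33, 36 and 97 genes, and with 1 library left out the counts ran from 15 to 62, 21 to 38 and 60 to 157. At an unadjusted p under 0.05, 2 of the 10 genes differed between GDF15 and pair-fed, 2 between GDF15 and vehicle and 4 between pair-fed and vehicle, against 13.2%, 11% and 18.9% of all genes. The adjusted p alone was passed by Nqo1, which was lower with GDF15 than with pair-feeding (1 of 10, background 1.24% of genes in that direction), and 0 of 10 were higher (background 0.929%). It was passed by Gpx3 for GDF15 against vehicle (1 of 10 higher, background 0.431%) and by Gpx3 and Nqo1 for pair-fed against vehicle (2 of 10 higher, background 3.2%), with 0 of 10 lower in these 2 comparisons (background 0.338% and 3.17%). In either direction, 2.17% of all genes passed for GDF15 against pair-fed, 0.769% for GDF15 against vehicle and 6.37% for pair-fed against vehicle. These shares rest on 257, 91 and 754 genes. With 1 library left out, the first count ran from 66 (without pair-fed mouse 5 or 6) to 372 (without pair-fed mouse 3). The second ran from 45 (without vehicle mouse 2) to 97 (without pair-fed mouse 6). The third ran from 406 (without pair-fed mouse 5) to 1048 (without pair-fed mouse 3). The groups did not overlap for the same genes, namely Nqo1 lower with GDF15 than with pair-feeding (1 of 10, background 1.06%), Gpx3 higher with GDF15 than with vehicle (1 of 10, background 0.785%), and Gpx3 and Nqo1 higher in pair-fed than in vehicle-treated mice (2 of 10, background 2.79%). For 0 of the 10 genes did the groups separate in the opposite direction, where 0.718%, 0.861% and 2.65% of all genes did. The 3 comparisons share their samples and are not independent of one another. Without regard to a test, 9 of the 10 genes were higher in pair-fed than in vehicle-treated mice, with a median log2 difference of 0.14 (50.2% of all genes were higher), and 8 of 10 were higher with GDF15 than with vehicle, with a median of 0.09 (50.4% of all genes). Between GDF15 and pair-fed mice 4 were higher and 6 lower, with a median of -0.05 (50.8% of all genes were higher), and the median over all tested genes was 0.00 in each comparison.

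**Figure D1:**
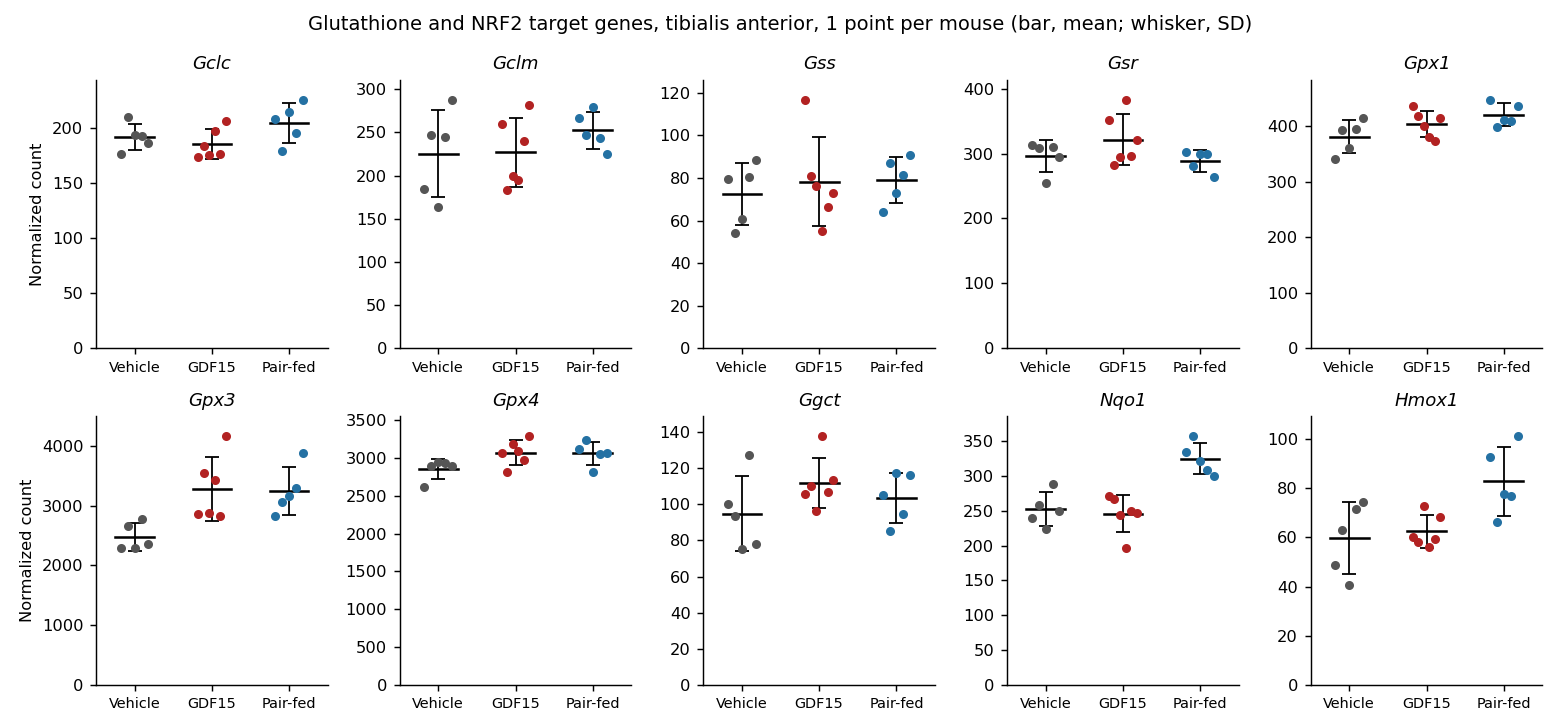
Normalized counts (vertical axes, from 0) of the 10 genes in each mouse, by group (horizontal axes), with the group mean as a bar and the SD as a whisker. The 5 pair-fed points for Nqo1, from 301 to 357, lie above all others, and the points for Gpx3 in GDF15-treated and pair-fed mice, from 2819 upward, lie above the highest vehicle value of 2780.

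Nqo1 encodes NAD(P)H quinone dehydrogenase, which reduces quinones and is among the most widely used readouts of NRF2 activity (GRCm38, chr8:107388225-107403206, minus strand). In the vehicle-treated mice 1 to 5 its normalized counts were 241, 258, 225, 289 and 250. In the GDF15-treated mice 1 to 6 they were 272, 267, 244, 197, 250 and 248, and in the pair-fed mice 2 to 6 they were 335, 357, 322, 309 and 301. Every pair-fed mouse therefore lay above every mouse of the other groups, whereas the ranges of GDF15 and vehicle overlapped. The means were 253 ± 24.0 (SD, n = 5) for vehicle, 246 ± 26.6 (SD, n = 6) for GDF15 and 325 ± 22.3 (SD, n = 5) for pair-fed. Nqo1 was 1.29-fold higher in pair-fed than in vehicle-treated mice (log2 difference 0.36, SE 0.09, 95% CI 0.18 to 0.55, limma adjusted p = 0.0297). With GDF15 it was at 0.756 of the pair-fed level (log2 difference -0.40, SE 0.08, 95% CI -0.58 to -0.23, adjusted p = 0.0326). GDF15 against vehicle gave a log2 difference of -0.04 with a 95% CI of -0.22 to 0.14 and an adjusted p of 0.914. The spread of Nqo1 between vehicle-treated mice, a coefficient of variation of 9.50%, compares with 6.08% from counting about 270 reads per library. The GDF15 libraries were shallower in their median and held more macrophage marker RNA than the pair-fed ones, with 7 of 7 markers higher, a median log2 difference of 0.43 and 0 of 7 passing the adjusted p. Their summed macrophage markers ran from 239 to 550 normalized counts with GDF15, from 200 to 488 with pair-feeding and from 279 to 458 with vehicle, and no macrophage marker was at 0 in any library. With depth as a covariate the difference between GDF15 and pair-fed was -0.27 (adjusted p = 0.153), and with the macrophage markers as a covariate it was -0.40 (adjusted p = 0.106).

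Gpx3, the secreted glutathione peroxidase found in plasma and the space around cells, was higher in both groups of reduced intake than with vehicle (GRCm38, chr11:54902453-54910377, plus strand). Its normalized counts were 2289, 2660, 2285, 2780 and 2359 in vehicle-treated mice 1 to 5. They were 2862, 3548, 2877, 3436, 2819 and 4161 in GDF15-treated mice 1 to 6, and 2823, 3061, 3163, 3287 and 3883 in pair-fed mice 2 to 6. The lowest value of either group lay above the highest vehicle value, and the GDF15 and pair-fed ranges overlapped over most of their length. The vehicle mean was 2475 ± 230 (SD, n = 5), the GDF15 mean 3284 ± 533 (SD, n = 6) and the pair-fed mean 3243 ± 396 (SD, n = 5). Pair-fed mice had 1.31-fold the vehicle level (log2 difference 0.39, SE 0.10, 95% CI 0.17 to 0.60, adjusted p = 0.0448) and GDF15-treated mice 1.32-fold (log2 difference 0.40, SE 0.10, 95% CI 0.19 to 0.60, adjusted p = 0.0984). Between GDF15 and pair-fed the log2 difference was 0.01, with a 95% CI of -0.20 to 0.22. The call for GDF15 against vehicle lay just under the threshold and was lost under 22 of 32 other settings, whereas its direction held in all 32. The call for pair-fed against vehicle was lost without vehicle mouse 3 (adjusted p = 0.104), vehicle mouse 5 (0.101), pair-fed mouse 5 (0.101) or pair-fed mouse 6 (0.120).

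Markers of blood vessel lining moved in these comparisons too. All 5 endothelial markers were lower with GDF15 and with pair-feeding than with vehicle, with median log2 differences of -0.12 and -0.17, and 1 of the 5, Kdr, passed the adjusted p in each (-0.66, adjusted p = 0.00116, background 0.338%, and -0.50, adjusted p = 0.00473, background 3.17%). Their summed normalized counts were 4760 to 5626 with vehicle, 3982 to 4978 with GDF15 and 4136 to 4966 with pair-feeding, and none was at 0 in any library. With these markers as a covariate, a setting chosen after seeing the data, the difference of Nqo1 between pair-fed and vehicle was 0.39 (adjusted p = 0.339) and that of Gpx3 was 0.29 (adjusted p = 0.597). All 6 tested adipocyte markers were also higher in the 2 groups of reduced intake than in vehicle, with median log2 differences of 0.44 and 0.58 and 0 of 6 passing. Their sums overlapped widely, at 85.8 to 403 with vehicle, 50.8 to 1195 with GDF15 and 216 to 602 with pair-feeding.

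Hmox1, which encodes the inducible haem oxygenase, had the widest difference of the 10 genes between pair-fed and vehicle and did not pass the adjusted p (GRCm38, chr8:75093621-75100589, plus strand). Its normalized counts were 48.6, 63.1, 40.5, 71.8 and 74.6 in vehicle-treated mice 1 to 5. GDF15-treated mice 1 to 6 gave 60.3, 58.2, 72.6, 55.9, 59.3 and 68.3, and pair-fed mice 2 to 6 gave 92.8, 66.1, 77.7, 76.7 and 101. Of the pair-fed mice, 4 of 5 lay above every other mouse and mouse 3 lay within the range of the other groups. The log2 difference between pair-fed and vehicle was 0.49 (SE 0.16, 95% CI 0.14 to 0.83, adjusted p = 0.112), and that between GDF15 and pair-fed was -0.39 (SE 0.16, 95% CI -0.72 to -0.06, adjusted p = 0.287). GDF15 against vehicle gave 0.09 (95% CI -0.24 to 0.42, adjusted p = 0.885). Hmox1 rested on about 64.9 reads per vehicle library, for which counting alone gives a coefficient of variation of 12.4% beside the 24.7% measured. The 6 fibroblast markers were all higher with GDF15 than with pair-feeding (median log2 difference 0.38, 0 of 6 passing), and 5 of 6 were lower in pair-fed than in vehicle-treated mice, with sums of 3408 to 6678 for vehicle, 4689 to 7910 for GDF15 and 3411 to 6978 for pair-fed. With them as a covariate, added after seeing the data, Hmox1 passed for pair-fed against vehicle (0.59, adjusted p = 0.0307) and for GDF15 against pair-fed (-0.58, adjusted p = 0.0891). Without pair-fed mouse 3 the adjusted p against vehicle was 0.0668, with a minimum mean of 50 it was 0.0976, with quantile scaling 0.0972, without vehicle mouse 4 it was 0.0904 and without vehicle mouse 5 it was 0.0922, and over the 32 settings it ran from 0.0307 to 0.607.

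**Figure D2:**
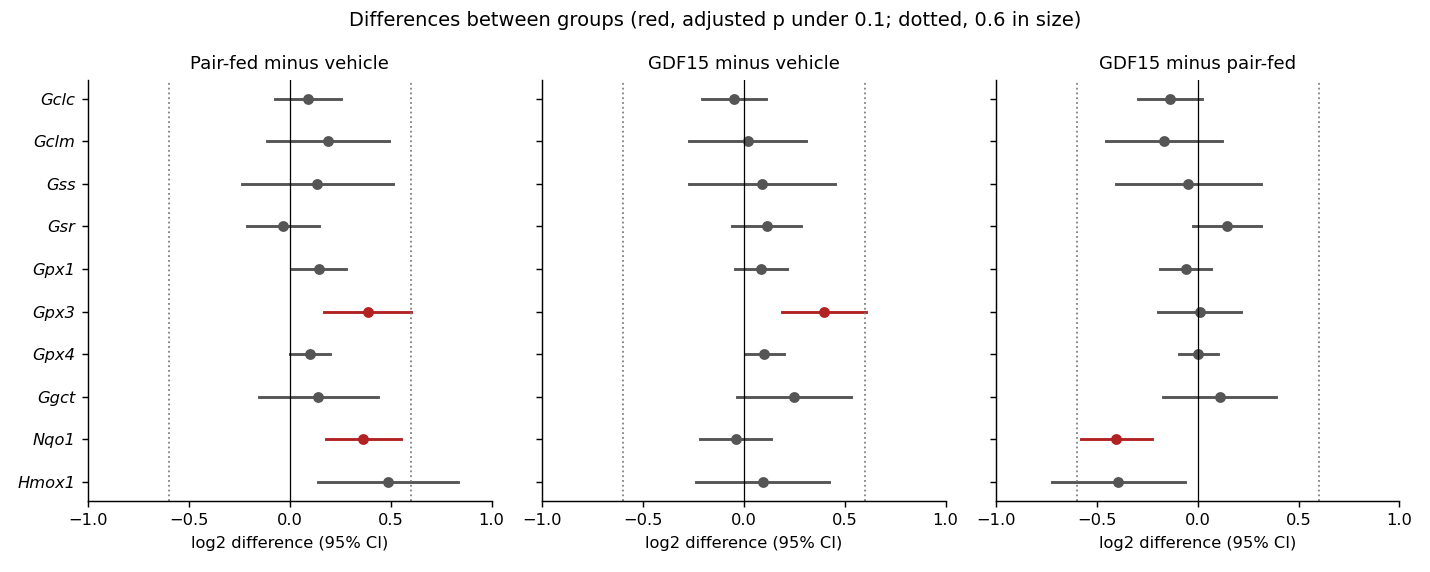
Log2 differences (horizontal axes) with 95% confidence intervals for the 10 genes (rows) in the 3 comparisons, with dotted lines at 0.6 in either direction and genes under an adjusted p of 0.1 in red. Only Nqo1 and Gpx3 are red, and the point estimates of all 10 genes lie inside the dotted lines.

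The genes of glutathione synthesis did not pass in any comparison. Gclc, the catalytic subunit of glutamate-cysteine ligase, ran from 176 to 210 normalized counts in vehicle-treated mice, from 174 to 206 (median 180) with GDF15 and from 179 to 226 with pair-feeding (GRCm38, chr9:77754535-77794485, plus strand). Its log2 difference was -0.14 between GDF15 and pair-fed (95% CI -0.30 to 0.02, adjusted p = 0.448), 0.09 between pair-fed and vehicle (adjusted p = 0.589) and -0.05 between GDF15 and vehicle (adjusted p = 0.869). Gclc varied by 6.34% between vehicle-treated mice, 7.17% between GDF15-treated mice and 8.81% between pair-fed mice, where counting alone would give 6.99%, 7.62% and 6.85%. Gclm, the regulatory subunit (GRCm38, chr3:122245557-122270732, plus strand), varied more than Gclc in the vehicle and GDF15 groups, with coefficients of variation of 22.5% and 17.6%, but not in the pair-fed group, with 8.44% against 8.81%. Its normalized counts were 185, 247, 163, 245 and 288 in vehicle-treated mice 1 to 5, from 183 to 282 (median 220) with GDF15, and 266, 247, 279, 244 and 224 in pair-fed mice 2 to 6. Counting alone would give Gclm a coefficient of variation of 6.39% in the vehicle group. Its log2 difference between pair-fed and vehicle was 0.19 (95% CI -0.12 to 0.49, adjusted p = 0.530). For Gclm the 95% CI of GDF15 against pair-fed, -0.46 to 0.12, and of GDF15 against vehicle, -0.27 to 0.31, each spanned 0. Exons of Gclm overlap Gm6061 on the same strand and Gm17494 on the other, so that reads of these could not be told apart with certainty.

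Gss, glutathione synthetase (GRCm38, chr2:155563181-155592810, minus strand), had a vehicle mean of 72.6 ± 14.5 (SD, n = 5), a GDF15 mean of 78.2 ± 21.0 (SD, n = 6) and a pair-fed mean of 79.2 ± 10.9 (SD, n = 5). The GDF15 group ranged from 55.2 to 117 with a median of 74.7, its highest value coming from mouse 1, and overlapped the ranges of both other groups. Its log2 difference between pair-fed and vehicle was 0.14 with a 95% CI of -0.24 to 0.51, the widest interval among the 10 genes. Exons of Gss overlap Acss2, Gssos1 and Gssos2 on the other strand, and the strand setting of the quantification is not given in the sources used here. Ggct, gamma-glutamylcyclotransferase, which takes part in glutathione breakdown (GRCm38, chr6:54982580-54992950, minus strand), had means of 94.9 ± 20.8 (SD, n = 5), 112 ± 14.0 (SD, n = 6) and 104 ± 13.8 (SD, n = 5) with vehicle, GDF15 and pair-feeding. Its largest difference, 0.25 between GDF15 and vehicle, had a 95% CI of -0.03 to 0.53 and an adjusted p of 0.519.

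The recycling enzyme and the intracellular peroxidases differed by at most 0.15 on the log2 scale. Gsr, glutathione reductase (GRCm38, chr8:33652523-33698163, plus strand), had a vehicle mean of 296 ± 24.2 (SD, n = 5) normalized counts, a GDF15 mean of 321 ± 39.0 (SD, n = 6) and a pair-fed mean of 289 ± 16.8 (SD, n = 5). It was the 1 member of the 10 that was lower in pair-fed than in vehicle-treated mice (-0.03, adjusted p = 0.886), and its difference between GDF15 and pair-fed was 0.15 (95% CI -0.03 to 0.32, adjusted p = 0.462). Gpx1, the cytosolic peroxidase (GRCm38, chr9:108338903-108340343, plus strand), had counts of 341, 392, 361, 396 and 415 in vehicle-treated mice 1 to 5 and of 448, 398, 412, 409 and 437 in pair-fed mice 2 to 6, with GDF15 between 374 and 436. Its log2 difference between pair-fed and vehicle, 0.14 (SE 0.06, 95% CI 0.01 to 0.28), did not pass the adjusted p (0.221), but passed with the fibroblast covariate (0.18, adjusted p = 0.0722). Gpx4, which reduces lipid peroxides in membranes and thereby restrains ferroptosis (GRCm38, chr10:80047166-80056439, plus strand), had means of 2857 ± 133 (SD, n = 5), 3069 ± 167 (SD, n = 6) and 3061 ± 155 (SD, n = 5) with vehicle, GDF15 and pair-feeding. Gpx4 was 0.10 higher on the log2 scale than vehicle in either group (SE 0.05 in each, adjusted p = 0.412 for GDF15 and 0.272 for pair-fed), with 95% CIs of 0.01 to 0.20 for GDF15 and 0.00 to 0.20 for pair-fed. The annotation lists a processed copy, Gpx4-ps2, with which reads of Gpx4 could be shared.

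Per kilobase of the longest coding transcript, the 10 genes covered a wide range of levels. In vehicle-treated muscle Gpx4 stood highest at 2871 ± 134 (SD, n = 5) normalized counts per kb, followed by Gpx3 at 1552 ± 144, Gpx1 at 355 ± 27.6, Nqo1 at 163 ± 15.46 and Gsr at 111 ± 9.07. Gclc at 56.0 ± 3.55 came next, and then Gclm at 40.3 ± 9.06, Hmox1 at 38.1 ± 9.40, Gss at 37.0 ± 7.41 and Ggct at 24.0 ± 5.26. The peroxidases thus stood far above the enzymes that make glutathione. From Gpx4 down to Gclm, neighbours in this order did not overlap in the vehicle group, whereas Gclm overlapped Hmox1, Hmox1 overlapped Gss and Gss overlapped Ggct. Dividing by the mean length of the coding transcripts instead kept the first 4 in order and changed the order below them, with Gclm then at 127 and Hmox1 lowest at 38.1.

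**Figure D3:**
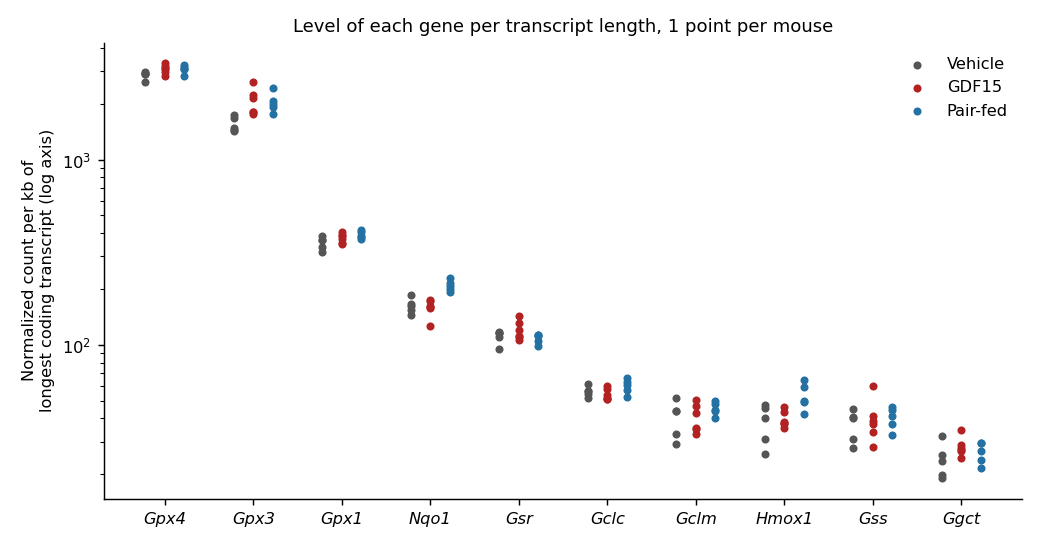
Normalized count per kb of the longest coding transcript (vertical axis, logarithmic) of each gene (horizontal axis, ordered by the vehicle mean), with 1 point per mouse coloured by group. The lowest points are at 2636 for Gpx4 and 1433 for Gpx3, and those of Gclm, Hmox1, Gss and Ggct share a range with a highest value of 64.5.

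The antioxidant response element was looked for in the promoter sequences of RefSeq (GRCm38.p6), 250 bases before to 50 after each start, of which 7 of the 10 members had an entry. The core TGACNNNGC, or GCNNNGTCA on the other strand, occurred in 12.4% of 32851 promoters and for 14.0% of 27025 genes. It shares the letters TGAC with the AP-1 motif TGACTCA and with the cAMP response element. Among the members it was found for Gclm and Ggct, 2 of 7, and the stricter TGACTCAGC, present in 0.454% of promoters, was found for 0 members. It was also found for 4 of 10 NRF2 regulators and 7 of 20 further NRF2 targets, and among the other genes named below for Flvcr1 (from position -151) and Selenok (from position -44). The matches of the members are shown with 10 bases on each side and the core in capitals, together with those of Nfe2l2 and Txnrd1, the regulator and the target of the NRF2 lists named below that hold one.
Gclm, chr3:122245413-122245441, plus strand, core from position -134 relative to the start: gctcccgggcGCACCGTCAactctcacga
Ggct, chr6:54993023-54993051, minus strand, core from position -174: caatagaaaaGCGACGTCAgtgggcggga
Nfe2l2, chr2:75704885-75704913, minus strand, core from position -240: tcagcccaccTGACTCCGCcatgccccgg
Txnrd1, chr10:82859104-82859132, plus strand, core from position -92: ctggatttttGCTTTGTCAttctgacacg
Ggct held another match 5 bases after its start. The 100 bases before a RefSeq start of Nqo1 and Gpx3, the members that passed the adjusted p, are given for reference, and the core letters are not in the windows of these genes. The Gpx3 stretch lies inside the gene as GENCODE places it, from chr11:54902453, so it is not upstream of that earlier start.
Nqo1, chr8:107403206-107403305, minus strand: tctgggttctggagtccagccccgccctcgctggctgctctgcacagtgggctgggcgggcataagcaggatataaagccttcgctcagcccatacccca
Gpx3, chr11:54902754-54902853, plus strand: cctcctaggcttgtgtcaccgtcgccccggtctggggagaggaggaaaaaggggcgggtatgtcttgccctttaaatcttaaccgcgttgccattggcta
A match is a run of letters and was not tested for binding. Of the genes named as holding one, Gclm and Ggct did not pass in any comparison, and Nfe2l2, Txnrd1, Flvcr1 and Selenok passed in some. Nqo1 and Gpx3, which hold none in this window, passed as well. Elements outside the window were not looked for, and whether matches go with calls was not tested.

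The related lists here and below were chosen with earlier results of these data known, so their shares beside those of all genes are a description. Of 10 listed NRF2 regulators, 2 passed the adjusted p as higher in pair-fed than in vehicle-treated mice (background 3.2%) and 3 as lower with GDF15 than with pair-feeding (background 1.24%), whereas 0 of 10 passed for GDF15 against vehicle by limma, with 2 at an unadjusted p under 0.05 (background 11%). Nfe2l2 itself had normalized counts of 554, 514, 483, 539 and 523 in vehicle-treated mice 1 to 5 and of 631, 585, 655, 592 and 668 in pair-fed mice 2 to 6. With GDF15 it ran from 509 to 564 with a median of 546. Like Nqo1, it was higher in every pair-fed mouse than in any other, by 0.26 on the log2 scale against vehicle (SE 0.05, adjusted p = 0.0131), with GDF15 at -0.20 against pair-fed (SE 0.05, adjusted p = 0.0662). The latter passed less firmly, its adjusted p running from 0.0426 to 0.159 over 32 settings and reaching 0.1 in 11 of them, 6 of which left out 1 library. Sqstm1, the autophagy receptor p62 that binds Keap1, ran from 6258 to 7522 with vehicle, from 6977 to 7807 with GDF15 and from 7844 to 9685 with pair-feeding. Its ranges with pair-feeding and with the other groups did not overlap, and it differed by 0.36 between pair-fed and vehicle (adjusted p = 0.00322) and by -0.26 between GDF15 and pair-fed (adjusted p = 0.0354). The first call was lost with the endothelial covariate (adjusted p = 0.232). The second was lost with the depth covariate (0.110), the macrophage covariate (0.108) and without pair-fed mouse 5 (0.119) or 6 (0.107). Bach1, a repressor that competes with NRF2 at its binding sites, was at -0.28 in GDF15 against pair-fed (adjusted p = 0.0678) and at 0.22 in pair-fed against vehicle, which did not pass (adjusted p = 0.105). The former was lost under 12 of 32 settings, 7 of them without GDF15 mouse 2, 3 or 4 or pair-fed mouse 2, 4, 5 or 6 (adjusted p up to 0.191). The latter passed under 4, with a minimum mean of 50 (0.0884), quality weights (0.0819), quantile scaling (0.0907) or without pair-fed mouse 3 (0.0126). Keap1 had means of 1306 ± 66.2 (SD, n = 5), 1352 ± 54.3 (SD, n = 6) and 1358 ± 68.1 (SD, n = 5) with vehicle, GDF15 and pair-feeding, and its differences of 0.06 or less in size did not pass.

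**Figure D4:**
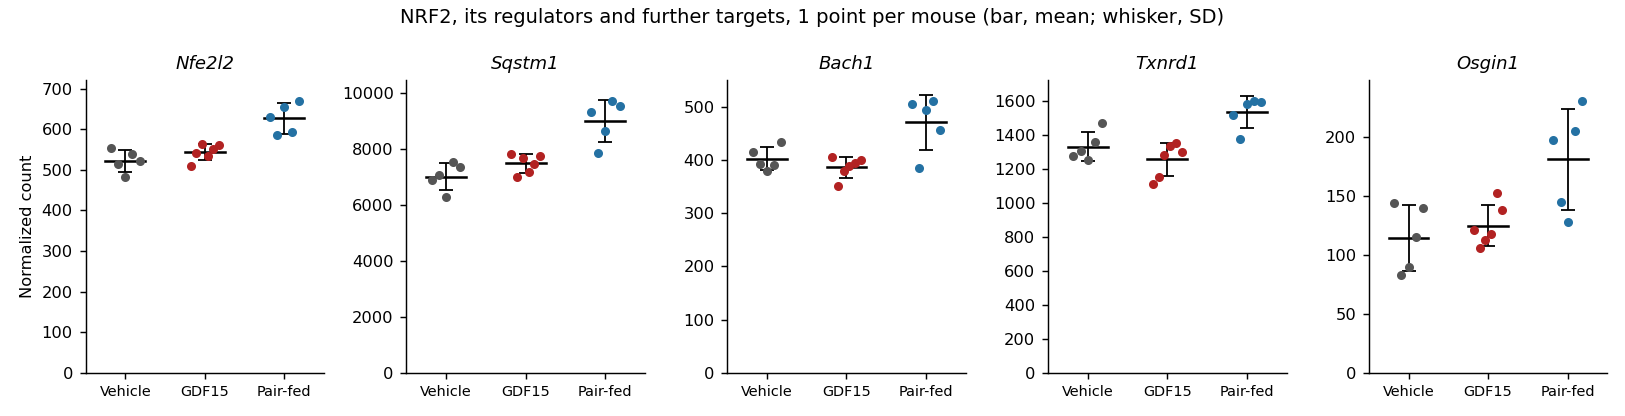
Normalized counts (vertical axes, from 0) of Nfe2l2, of 2 further regulators, Sqstm1 and Bach1, and of 2 further targets, Txnrd1 and Osgin1, in each mouse by group, with the mean as a bar and the SD as a whisker. The 5 pair-fed points of Nfe2l2 and Sqstm1 lie above all others, while those of Bach1, Txnrd1 and Osgin1 overlap the vehicle points.

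Among 20 tested of 22 further NRF2 targets, 6 passed the adjusted p as higher in pair-fed than in vehicle-treated mice (background 3.2%) and 0 as lower (background 3.17%), with a median log2 difference of 0.12. For GDF15 against vehicle 0 of 20 passed by limma, 5 being higher and 1 lower at an unadjusted p under 0.05 (background 11% in either direction), and for GDF15 against pair-fed 1 passed as lower (background 1.24%). Osgin1, an NRF2-induced growth inhibitor, was the 1 target of the 20 to pass both thresholds (background 0.819%), with 114 ± 28.0 (SD, n = 5) normalized counts for vehicle, 125 ± 17.4 (SD, n = 6) for GDF15 and 181 ± 42.9 (SD, n = 5) for pair-fed (pair-fed against vehicle 0.66, SE 0.18, adjusted p = 0.0467). Osgin1 did not pass without vehicle mouse 2 or 3 or without pair-fed mouse 2, 5 or 6, where its adjusted p lay between 0.108 and 0.124. With the endothelial covariate its difference was 0.35 (adjusted p = 0.724). Txnrd1, cytosolic thioredoxin reductase, was lower with GDF15, at 1109 to 1352, than with pair-feeding, at 1373 to 1596, and these ranges did not overlap (-0.29, SE 0.06, adjusted p = 0.0322). With the macrophage covariate it did not pass (-0.28, adjusted p = 0.107). Against vehicle, at 1250 to 1468, pair-fed mice had more Txnrd1 (0.20, adjusted p = 0.0788). That call was lost under 13 of 32 settings, 8 of them without vehicle mouse 1, 2, 3 or 4 or pair-fed mouse 2, 4, 5 or 6 (adjusted p up to 0.173). Another was the endothelial covariate, where the difference was 0.27 and its SE 0.09, beside 0.20 and 0.06 without it (adjusted p = 0.338). The glutathione S-transferases Gstm1 (0.22, adjusted p = 0.0355) and Gstp1 (0.17, adjusted p = 0.0261) were higher in pair-fed mice, as were Ftl1 (0.23, adjusted p = 0.0764) and Abcc1 (0.23, adjusted p = 0.0612), which are named after their values were seen. With the endothelial covariate Gstm1 (0.16, adjusted p = 0.564) and Gstp1 (0.14, adjusted p = 0.504) did not pass. Gstm1 did not pass with the mouse number as a block either (0.22, adjusted p = 0.105). Gstm1, Gstp1 and Ftl1 have near-identical relatives between which reads could be divided. Slc7a11, the cystine importer, lay below the minimum with a mean of 1.15 normalized counts and was not tested.

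Chac1, which degrades glutathione inside cells, differed more than any member. Its normalized counts were 653, 774, 1200, 1183 and 1173 in vehicle-treated mice 1 to 5 and 1753, 1682, 1169, 2202 and 1759 in pair-fed mice 2 to 6, and ran from 474 to 868 with GDF15. Chac1 was lower with GDF15 than with pair-feeding by a log2 difference of -1.41 (SE 0.19, adjusted p = 0.00243), without overlap, where Ggct gave 0.11. Against vehicle its difference was 0.80 for pair-fed (SE 0.20, adjusted p = 0.0363) and -0.61 for GDF15 (SE 0.19, adjusted p = 0.219), beside 0.14 and 0.25 for Ggct. The call of 0.80 was lost under 3 of 32 settings, 1 of them without pair-fed mouse 5 (adjusted p = 0.102) and another with the endothelial covariate (0.51, adjusted p = 0.626). Of the 15 tested of 18 genes of glutathione supply and breakdown, 2, Chac1 and Slc25a39, the mitochondrial glutathione carrier, passed the adjusted p for GDF15 against pair-fed (background 2.17%) and for pair-fed against vehicle (background 6.37%). Slc25a39 was lower in pair-fed mice, with a log2 difference of -0.22 against vehicle (adjusted p = 0.0980), and higher with GDF15 than with pair-feeding by 0.25 (adjusted p = 0.0981). The former call was lost under 16 of 32 settings, 10 of which left out 1 library. The endothelial covariate left -0.075 (adjusted p = 0.877). The latter call was lost under 20 settings. Among 21 tested of 23 enzymes that use glutathione, Gstm2 passed for pair-fed against vehicle (0.42, adjusted p = 0.0189, background 3.2%), with 701 to 963 in pair-fed and 489 to 680 in vehicle-treated mice. With the endothelial covariate its difference was 0.24 (adjusted p = 0.596). Of the 21, 0 passed in the other comparisons by limma, with 3 for GDF15 against pair-fed (background 13.2%) and 5 for GDF15 against vehicle (background 11%) at an unadjusted p under 0.05.

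Of 19 genes of superoxide dismutases, peroxiredoxins and thioredoxins, Sod2, the mitochondrial superoxide dismutase, was the 1 gene to pass for pair-fed against vehicle, where it was lower (-0.24, adjusted p = 0.0750, background 3.17%), at 3650 to 4750 against 4977 to 5238. This call was lost when any 1 vehicle-treated mouse or pair-fed mouse 2, 5 or 6 was left out, with adjusted p between 0.104 and 0.179. The endothelial covariate left -0.065 (adjusted p = 0.886). Sesn1, a stress-induced sestrin, was the 1 gene of the 19 to pass as lower with GDF15 than with pair-feeding (-0.36, adjusted p = 0.0486, background 1.24%). It did not pass without GDF15 mouse 4 or pair-fed mouse 5 or 6, with adjusted p between 0.117 and 0.130, or with the depth covariate (-0.37, adjusted p = 0.118). Of 16 tested of 17 selenoproteins and selenocysteine factors, 1, Selenok, a protein of the endoplasmic reticulum, passed for pair-fed against vehicle (0.19, adjusted p = 0.0757), a share near the 6.37% of all genes that passed in either direction. It was lost under 10 of 32 settings. Of these, 6 were without vehicle mouse 1, 2 or 3 or pair-fed mouse 2, 5 or 6, with adjusted p up to 0.187. For haem and iron, the substrates and products of Hmox1, Tfrc, the transferrin receptor, was lower in pair-fed than in vehicle-treated mice, at 477 to 1245 against 1329 to 1833 (-0.97, SE 0.20, adjusted p = 0.0146), and higher with GDF15 than with pair-feeding (0.73, SE 0.19, adjusted p = 0.0812). The latter call was lost under 13 of 32 settings. Of these, 8 were without GDF15 mouse 1, 2, 3, 5 or 6 or pair-fed mouse 2, 5 or 6, with adjusted p up to 0.198. Flvcr1, a haem exporter, was lower with GDF15 than with pair-feeding (-1.05, SE 0.25, adjusted p = 0.0577), with 112 to 207 normalized counts against 206 to 482. It did not pass without GDF15 mouse 4 or pair-fed mouse 2, 5 or 6, with adjusted p up to 0.182. Nor did it pass with the depth (adjusted p = 0.124), macrophage (0.166) or fibroblast covariate (0.153), or without the trend (0.114). The 3 red blood cell markers with a row were higher with GDF15 than with pair-feeding (median log2 difference 1.17) and than with vehicle (1.24), with 0 of 3 passing. Their sums were 260 to 3146 normalized counts for vehicle, 838 to 2556 for GDF15 and 79.9 to 3743 for pair-fed, Alas2 was at 0 in 1 library, and their part in these results was not tested. Of 11 tested genes of 12 in that list of haem and iron genes, 2 passed both thresholds for GDF15 against pair-fed (background 0.279%) and 1, Tfrc, for pair-fed against vehicle (background 0.819%).

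**Figure D5:**
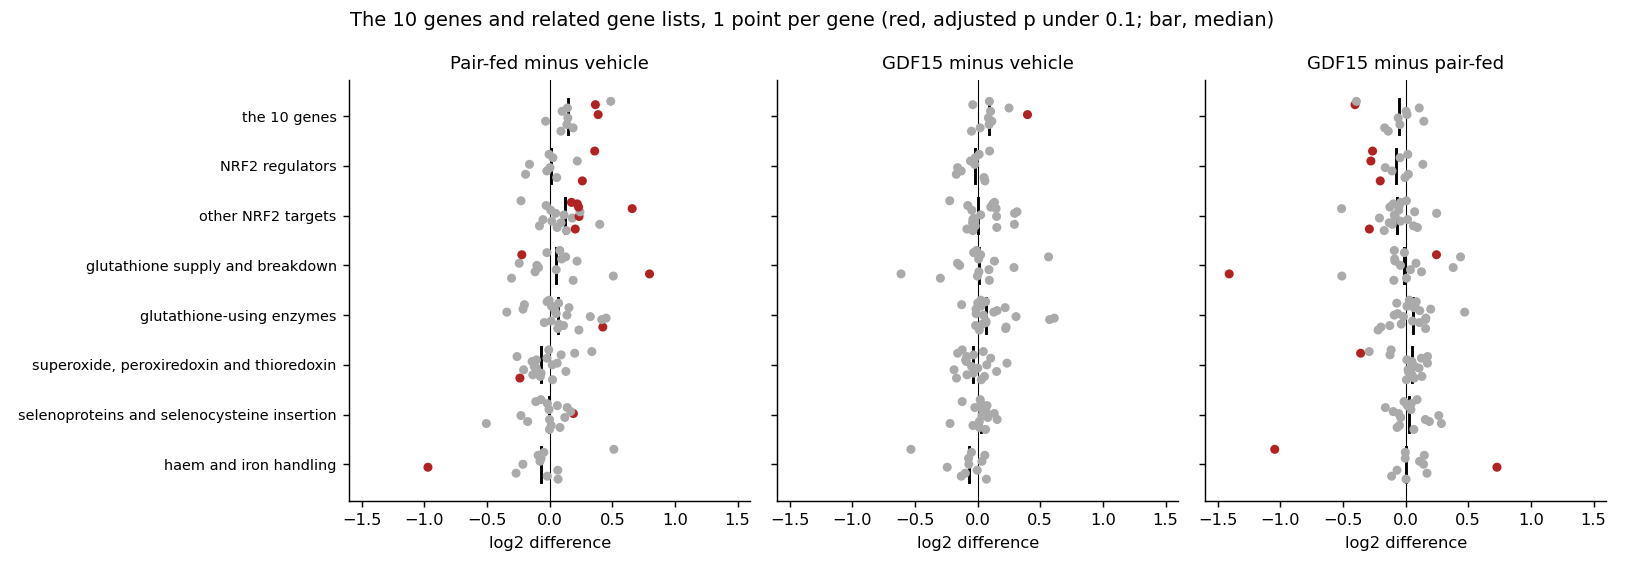
Log2 differences (horizontal axes) of every tested gene of the 10 members and of 7 related lists (rows) in the 3 comparisons, with the list median as a bar and genes under an adjusted p of 0.1 in red. For GDF15 against vehicle the 1 red point is Gpx3, while for pair-fed against vehicle 6 further NRF2 targets are red on the higher side.

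Across the 16 libraries the 10 genes did not vary as 1 block. Of their 45 pairs, 11 had a Pearson correlation above 0.5 on log2(normalized count + 1) and 8 were below 0, with a median of 0.26, or 0.20 after the group means were removed. The closest pair was Gpx1 and Hmox1 (0.78, and 0.72 within groups), followed by Nqo1 and Hmox1 (0.64, but 0.27 within groups) and by Gclm and Hmox1 (0.64, and 0.58 within groups). Gsr and Nqo1 (-0.35) and Gclc and Gss (-0.35) lay lowest. Over all tested genes, the gene most like each member was Lrrc29 for Gclc (0.80), Rufy3 for Gclm (0.81), Isg20l2 for Gss (0.81), Traf2 for Gsr (0.85) and Cercam for Gpx1 (0.84). It was Ptgis for Gpx3 (0.84), Fndc10 for Gpx4 (0.89), Dph6 for Ggct (0.83), Zfp708 for Nqo1 (0.84) and Fbxo7 for Hmox1 (0.89). These values describe 16 libraries that share group effects and scaling, and each is the highest of many.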

How the data were processed

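RNA of the tibialis anterior was sequenced from 16 mice, grouped by their labels. Trim Galore (read trimming), Salmon (transcript quantification) and DESeq2 (scaling and tests) were used by the authors; the submitters' notes name mm10, and versions are not given in the sources used here. The authors deposited log2 values (7.32 to 19.96) that have the form of the DESeq2 variance stabilizing transformation, with 8459 at the lowest value, a count of 0. These were transformed back to normalized counts. Approximate depth came from the value of 1 read in genes with a single transcript, where 78.8% to 95.0% of low values per library lay within 0.1 reads of a whole number; in genes with over 4 transcripts 20.6% to 26.5% did, so no count test was run.

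For genes with a mean of at least 10, limma 3.58.1 was fitted to log2(normalized count + 1) in R 4.3.3 (trend, all 3 groups in the fit, two-sided, Benjamini-Hochberg over 11841 genes). The thresholds, an adjusted p of 0.1 and a log2 difference of 0.6, are those of the study for this muscle. On simulated data of 11841 genes, 95 of 100 genes changed by a log2 difference of 1 and 100 of 100 changed by 2 were called, with 5 false calls. Differences below 1, the range in which all differences of the members lay, were not simulated. Python 3.11.15 was used for tables. The members and gene lists were chosen with earlier results of these data known. The named genes were all members; Nfe2l2, Keap1, Slc7a11 and Chac1; genes of the related lists past both thresholds; up to 3 genes per list with the smallest adjusted p under 0.1; and the most correlated gene of each member. Positions are from GENCODE vM21, which held 14282 of the 14538 symbols. Nothing states that mice with the same number in different groups belong together, and deviations of same-numbered mice from their group means correlated at -0.10 to 0.07 over 14 pairs, so the numbers were not taken as pairs. The 35 pairs of libraries within groups correlated at 0.978 to 0.986, and 0 pairs were identical.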

Additional observations from a re-analysis of the deposited data

Results flagged for a closer look

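In 81 sets of values, each of 1 gene in 1 group, the highest or lowest mouse was compared with the rest by Dixon's criterion, which chance meets in about 1 of 20 sets, and 4 sets met it. Gpx4 was lowest in vehicle mouse 1, at 2623 normalized counts where the other vehicle-treated mice lay between 2890 and 2945. Nqo1 was lowest in GDF15 mouse 4, at 197 where the others lay between 244 and 272. Keap1 was highest in GDF15 mouse 6, at 1461 where the others lay between 1309 and 1344. Tfrc was highest in GDF15 mouse 1, at 2000.5 where the others lay between 1043 and 1376. These mice do not repeat from gene to gene.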

How the results depend on the processing

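Of 990 recomputed differences of the 10 genes over 33 settings, 916 kept their direction and their side of the threshold on the adjusted p, 31 lost and 8 gained it (1 of the 31 because the threshold itself became 0.05), and 35 changed sign. The count past both thresholds was 0 under every setting but the removal of the fold threshold (1 for GDF15 against pair-fed, 1 for GDF15 against vehicle and 2 for pair-fed against vehicle). On the adjusted p alone, the count for GDF15 against pair-fed was 0 with the depth or macrophage covariate and 2 with the fibroblast covariate (added after seeing the data, as was the endothelial one), where Hmox1 also passed (-0.58, adjusted p = 0.0891). For GDF15 against vehicle it was 0 on the deposited log2 values, without the filter, without the trend, with only the 2 groups, with upper-quartile or quantile scaling, with any of the 5 covariates or at an adjusted p of 0.05, and 0 to 1 with a library left out. For pair-fed against vehicle it was 4 with the fibroblast covariate (Gpx1 and Hmox1 also), 3 with a minimum mean of 50 or quantile scaling (Hmox1 also), 0 with the endothelial one and 1 to 3 with a library left out, at 1 without vehicle mouse 3, pair-fed mouse 5 or pair-fed mouse 6. The cause of these changes was not tested. With the mouse number as a replicate block the counts on the adjusted p were 1, 1 and 2, as without it; the numbers do not pair the mice. The block moved the count of all genes past both thresholds for GDF15 against vehicle from 36 to 20 and that past the adjusted p alone from 91 to 38.

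Signs changed as follows. For GDF15 against pair-fed they changed with the depth covariate for Gclm (0.011), Gss (0.10), Gpx1 (0.0054), Gpx3 (-0.020) and Gpx4 (-0.010), with the macrophage and the fibroblast covariate for Gpx3 (-0.0837 and -0.0806) and Keap1 (0.015 and 0.010), and with quantile scaling for Keap1 (0.0076). For GDF15 against vehicle they changed for Gclm with quality weights (-0.037) and the macrophage and fibroblast covariates (-0.013 and -0.015), for Nqo1 (0.081) and Slc25a39 (-0.024) with the depth covariate, and with the endothelial covariate for Gss (-0.17), Keap1 (-0.0059), Osgin1 (-0.19), Tfrc (0.025) and Sod2 (0.015). For pair-fed against vehicle they changed for Gss with the endothelial covariate (-0.11) and for Gsr with the block (0.0063). With a library left out, GDF15 against pair-fed ran from -0.17 to 0.046 for Gss, -0.060 to 0.078 for Gpx3, -0.026 to 0.029 for Gpx4 and -0.028 to 0.019 for Keap1. GDF15 against vehicle ran from -0.089 to 0.12 for Gclm, -0.031 to 0.18 for Gss, -0.080 to 0.023 for Nqo1, -0.034 to 0.18 for Hmox1 and -0.0099 to 0.073 for Slc25a39, and pair-fed against vehicle ran from -0.086 to 0.00069 for Gsr. Among the related genes, calls were lost under 1 of 32 settings for Nfe2l2, Sqstm1, Gstp1, Gstm2 and Tfrc in pair-fed against vehicle (the endothelial covariate in each, adjusted p = 0.246, 0.232, 0.504, 0.596 and 0.473), 2 for Gstm1, 3 for Chac1, 6 for Osgin1, 13 for Txnrd1, 16 for Slc25a39, 11 for Sod2 and 10 for Selenok. For GDF15 against pair-fed they were lost under 0 of 32 for Chac1, 1 for Txnrd1, 4 for Sqstm1 and Sesn1, 8 for Flvcr1, 11 for Nfe2l2, 12 for Bach1, 13 for Tfrc and 20 for Slc25a39. Calls were gained under 4 settings for Bach1 in pair-fed against vehicle and under 2 for Osgin1 in GDF15 against pair-fed. For GDF15 against vehicle a call was gained under 1 setting for Gstp1, without vehicle mouse 4 (0.16, adjusted p = 0.0737). With the endothelial covariate the pair-fed against vehicle differences of Nfe2l2, Sqstm1, Gstp1, Gstm2 and Tfrc were 0.27, 0.29, 0.14, 0.24 and -0.72. Without it they were 0.26, 0.36, 0.17, 0.42 and -0.97. Per kb of the mean coding length, vehicle levels were 3187 for Gpx4, 2382 for Gpx3, 455 for Gpx1, 127 for Gclm, 57.5 for Gss and 43.5 for Ggct.

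The counts of all genes past both thresholds, 33, 36 and 97, fell to 7, 9 and 17 on the deposited log2 values. With the endothelial covariate the counts past the adjusted p alone, 257, 91 and 754, became 355, 10 and 24. With the macrophage covariate the first was 47, and with the depth covariate the first 2 were 108 and 32. Depth limits Hmox1, Gss and Ggct most, for which counting noise was 9.61% to 13.1% of the level.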
